A study of Mus musculus with 6 samples.

Results

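Cytochrome P450 genes of families 1, 2 and 3 were compared between livers of isolated and control mice on Affymetrix expression arrays. The members were all probe sets annotated with exactly 1 gene symbol that begins with Cyp1, Cyp2 or Cyp3 followed by a letter, a rule that uses no measured value. They numbered 43 genes of 18193 named by a single symbol, on 52 of the 45037 probe sets that were not array controls. The 3 isolated livers came from mice that lived 1 per cage for 30 days with a reduced volume of bedding. The 3 control livers came from mice with the full bedding volume, whose number per cage over the 30 days the labels do not give. All were male BALB/c mice, 10 weeks old, received at 4 weeks and first kept 5 per cage for 10 days, and the cages of both groups stood in foam boxes. The labels name no drug, transgene or mutant allele in either group. They number the samples but do not say that each came from a separate mouse, so the spread between these samples may be partly technical. The p-values rest on that spread and on spread that the variance model borrows from other probe sets.

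P450 enzymes are heme proteins of the endoplasmic reticulum that insert an oxygen atom into drugs, steroids, bile acids, fatty acids and retinoids. Electrons reach them from NADPH through P450 reductase, and partly through cytochrome b5. Many of these genes in families 1 to 3 are strongly expressed in hepatocytes and are induced through receptors that sense foreign compounds: AHR for the Cyp1 genes, and the nuclear receptors CAR and PXR for Cyp2b, Cyp2c and Cyp3a genes. In mice several are also set by sex through the pattern of growth hormone release.

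Values are MAS5 signals, a linear intensity for each probe set. The median signal over all probe sets ran from 18.4 to 21.9 on the isolated arrays and from 18.4 to 22.1 on the control arrays. Hepatocyte markers were high on every array: the 8 of 9 listed markers that the annotation held summed to 71900 to 79641 in isolated livers and 76388 to 81527 in control livers, and 0 of the 8 were called. Markers of Kupffer (7 tested), endothelial (7), stellate (5), bile duct (2), red blood (1), pancreatic (1) and lymphoid cells (1) also held 0 called genes. Over all tested probe sets 1.63% were called, so counts of 0 in such short lists cannot show that the cell types were equal. In the adipocyte list the summed signal of 5 of 7 markers ran from 223 to 506 in isolated livers and from 140 to 234 in control livers. Fabp4, a fatty acid carrier and the 1 tested marker of that list, read 203, 300.3 and 404 in isolated livers against 117, 202 and 157 in control livers (limma adjusted p 0.0578), while the fat hormone gene Adipoq read 3.78, 59.5 and 54.8 against 4.38, 8.48 and 15.6. Adipoq lay below the filter, as did the remaining markers. Of these, Retn had the higher mean in isolated livers (21.6 against 3.02), and Cidea (9.56 against 11.7) and Lep (1.89 against 2.07) had the lower. Whether the adipocyte marker signal has a part in any P450 value was not tested. A signal in whole liver does not separate fewer cells of a type from less RNA per cell.

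Of the drug-metabolising P450 genes, Cyp2c38 alone was called, higher in isolated livers, by a test that for many members could not resolve moderate changes. Of the 52 probe sets, 40 lay in the upper 50% of the array by mean log2 signal and were tested, covering 33 genes. Of these 40, 1 was called higher in isolated livers, 0 were called lower and 39 were not called, by limma at an adjusted p under 0.05. Over all 22519 tested probe sets, 0.773% were called higher and 0.857% lower, or 1.63% in all, against 2.5% of the P450 probe sets. At an unadjusted p under 0.05 there were 7 of 40, or 17.5%, against 11.4% of all tested probe sets. Groups did not overlap for 5 of 40, or 12.5%, against 15.4% of all: isolated arrays were all higher for 2 (9.62% of all tested) and all lower for 3 (5.79% of all tested). The 95% interval of the log2 change lay within 0.5 of 0 for 18 of the 40 and left out 0 for 7. The median log2 change was 0.02 over the P450 probe sets and 0.04 over all tested probe sets.

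**Figure D1:**
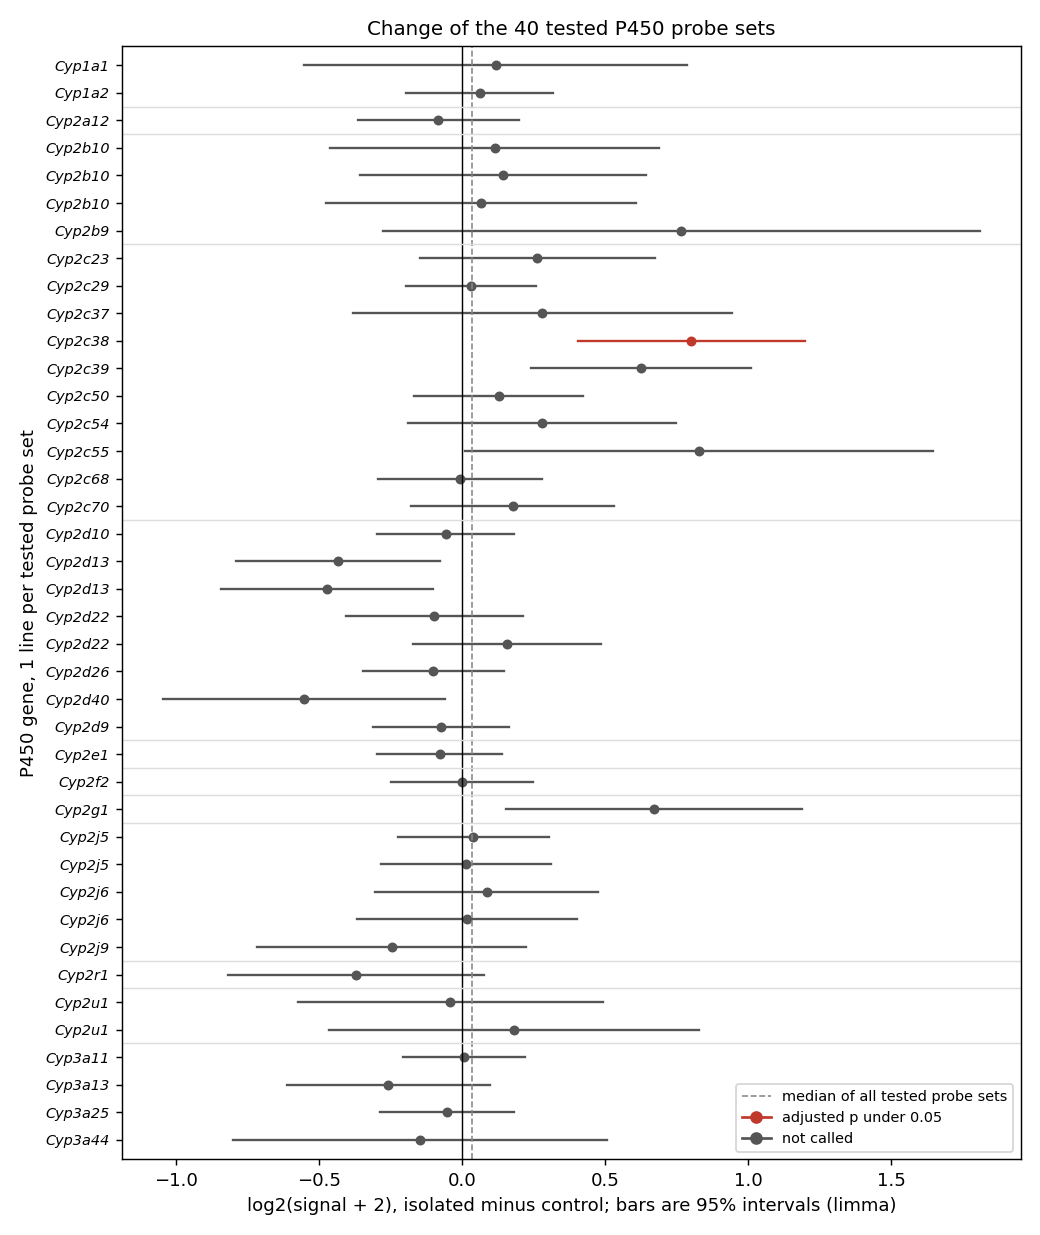
Difference in log2(signal + 2), isolated minus control, on the horizontal axis for each of the 40 tested P450 probe sets, 1 line each, ordered by subfamily from top to bottom; points are estimates and bars 95% limma intervals from 3 arrays per group. The 1 called probe set, Cyp2c38 in red, lies at 0.80, and the dashed line marks the median of all tested probe sets at 0.04.

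The 12 untested probe sets belonged to 10 genes with no other probe set above the filter, and their signals on single arrays ran from 0.239 to 29.7. They were 3 of Cyp1b1, a mainly extrahepatic enzyme, and 1 each of Cyp2b13, Cyp2b19, Cyp2c65, Cyp2d12, Cyp2d34, Cyp2j11, Cyp2j13, Cyp2s1 and Cyp3a16. The filter floor corresponds to a mean signal of about 18, and no detection calls were at hand, so these probe sets give no fold change here. Cyp2b13 and Cyp3a16, which are female-biased in mouse liver, read at most 15.7 and 3.06 in isolated livers and 25.0 and 4.82 in control livers, all of which came from males.

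Cyp2c38, which encodes an arachidonic acid epoxygenase of the mouse Cyp2c cluster, was the 1 P450 probe set called higher in isolated livers. It read 424, 492 and 336 in isolated livers, against 292, 197 and 227 in control livers. All 3 isolated arrays lay above all 3 control arrays. The means were 417 ± 78.2 in isolated livers and 239 ± 48.6 in control livers (SD, n = 3 per group), a log2 change of 0.80 ± 0.19 (SE) with a 95% interval of 0.40 to 1.20 and a limma adjusted p of 0.0335. The call was not held by every set of 5 arrays: the adjusted p was 0.165 without control replicate 2, 0.114 without control replicate 3, 0.0693 without isolated replicate 1 and 0.124 without isolated replicate 2. It was 0.244 without the intensity trend in the variance model, and the log2 change stayed between 0.67 and 0.96 in all alternatives.

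Cyp2c39, which encodes a retinoic acid hydroxylase, lies in the same gene cluster on mouse chromosome 19. It read 655, 588 and 537 in isolated livers, against 469, 423 and 283 in control livers. The groups did not overlap, and control replicate 3 was the lowest array. The log2 change was 0.63 ± 0.18 (SE), with a 95% interval of 0.24 to 1.01 and a limma adjusted p of 0.108, so it was not called. Without control replicate 3 the log2 change was 0.41 with an adjusted p of 0.331.

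The 250 bases before and 50 bases after the annotated starts of Cyp2c38 and Cyp2c39 are given with those of Cyp2c29, a neighbour in the same cluster whose log2 change was near 0, and of Cyp2d9. They show how alike the Cyp2c starts are, and Cyp2d9, which was not called, is given as the brightest Cyp2d probe set. The sequences are from RefSeq, build GRCm38.p6. They run 5′ to 3′ on each gene's own strand: chr19:39463026-39463325 (minus strand) for Cyp2c38, chr19:39347096-39347395 and chr19:39510572-39510871 (plus strand) for the 2 listed starts of Cyp2c39, chr19:39286835-39287134 (plus strand) for Cyp2c29 and chr15:82452127-82452426 (plus strand) for Cyp2d9. The Cyp2c38 window lies between the 2 Cyp2c39 windows on the chromosome, and which Cyp2c39 start is used in these livers was not tested. Capitals mark matches to the motifs searched.
Cyp2c38: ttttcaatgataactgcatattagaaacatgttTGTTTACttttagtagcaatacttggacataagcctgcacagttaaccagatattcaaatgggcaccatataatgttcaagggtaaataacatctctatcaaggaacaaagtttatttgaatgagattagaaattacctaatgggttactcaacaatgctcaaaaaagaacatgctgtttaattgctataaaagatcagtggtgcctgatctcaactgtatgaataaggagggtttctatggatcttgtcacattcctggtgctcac
Cyp2c39, start 1: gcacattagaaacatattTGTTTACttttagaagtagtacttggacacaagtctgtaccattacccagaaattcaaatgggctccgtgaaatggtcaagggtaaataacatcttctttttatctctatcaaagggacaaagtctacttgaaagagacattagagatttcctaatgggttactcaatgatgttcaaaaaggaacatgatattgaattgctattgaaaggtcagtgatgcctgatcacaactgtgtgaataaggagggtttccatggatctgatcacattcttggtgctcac
Cyp2c39, start 2: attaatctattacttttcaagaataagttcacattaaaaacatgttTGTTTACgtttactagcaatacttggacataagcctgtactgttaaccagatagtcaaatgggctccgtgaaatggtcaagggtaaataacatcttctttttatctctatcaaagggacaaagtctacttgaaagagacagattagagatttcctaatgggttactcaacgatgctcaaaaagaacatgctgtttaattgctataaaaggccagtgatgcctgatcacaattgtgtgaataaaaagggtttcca
Cyp2c29: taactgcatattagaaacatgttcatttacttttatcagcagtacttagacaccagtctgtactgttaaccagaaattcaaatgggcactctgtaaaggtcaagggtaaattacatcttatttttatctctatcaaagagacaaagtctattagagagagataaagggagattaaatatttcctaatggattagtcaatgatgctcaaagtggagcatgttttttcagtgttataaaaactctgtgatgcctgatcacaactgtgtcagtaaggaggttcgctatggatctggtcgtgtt
Cyp2d9: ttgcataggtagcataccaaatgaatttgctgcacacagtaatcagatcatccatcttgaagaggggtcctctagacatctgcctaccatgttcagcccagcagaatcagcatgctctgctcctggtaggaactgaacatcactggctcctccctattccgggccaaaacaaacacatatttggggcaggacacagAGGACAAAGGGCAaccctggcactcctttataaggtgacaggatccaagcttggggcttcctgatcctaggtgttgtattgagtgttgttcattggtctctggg

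In a global alignment, the window of Cyp2c38 was 78.1% and 72.6% identical to those of Cyp2c39 starts 1 and 2, and 70.8% identical to that of Cyp2c29. The windows of Cyp2c38 and of both Cyp2c39 starts hold TGTTTAC, a motif bound by FOX factors, beginning 217, 232 and 204 bases before the start, and the window of Cyp2c29 does not hold these letters. Windows of Cyp2j5, Cyp3a11, Cyp3a16 and Cyp3a44 hold them too, and of these genes Cyp2j5, Cyp3a11 and Cyp3a44 were tested and not called. Of 38 windows of 35 P450 genes, 18.4% hold TGTTTAC on either strand, against 3.65% of all 32851 windows. Both windows of Cyp2c39 count in that share, and the Cyp2c windows are alike, so these matches are not independent either. A direct repeat, 2 copies of AGGNCA with 1 base between them, bound by PPARalpha with RXR and by HNF4A, begins 54 bases before the start of Cyp2d9, and its letters are AGGACAAAGGGCA. The windows of Cyp2d9, Cyp2d10 and Cyp2d40 hold it, 3 of 38 or 7.89%, against 0.381% of all windows. The windows of Cyp2d9 and Cyp2d10 are 82.9% identical, so these matches are not independent. TNGCGTG, the core bound by AHR, is in 2.63% of the P450 windows (Cyp2c68) against 5.07% of all, and TTCNNNGAA, bound by STAT5 and BCL6, is in 2.63% (Cyp2j11) against 8.3%. TTGCNNAA, bound by C/EBP factors, is in 21.1% against 10.8%, including all 4 Cyp2b genes with a window. Cyp3a25 is counted there for each of its matching windows. How alike the Cyp2b and Cyp3a windows are was not measured, so their matches may not be independent. Both strands were searched, no 2 matches overlap in the sequences shown, and the motifs were picked after the changes were known. A match describes letters in a window and no binding.

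Across the Cyp2c subfamily, 9 of 10 tested probe sets had log2 changes above 0, where 55.4% of all tested probe sets did, and the median was 0.27. The range was -0.01 for Cyp2c68 to 0.83 for Cyp2c55. These 10 related genes were read on the same 6 arrays, so they are not separate observations. Under the alternatives the median stayed above 0, from 0.12 to 0.41, and 8 to 10 of 10 lay above 0 wherever 10 were tested. With 10 of 10 above 0 under median centring, the median of all tested probe sets was 0.09. Levels of the control arrays differed within the subfamily: control replicate 3 was the lowest control for 5 of the 10 genes and control replicate 2 for the other 5, and without control replicate 3 the subfamily's median was 0.12, with 8 of 10 above 0, against a median of 0.10 over all tested probe sets.

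**Figure D2:**
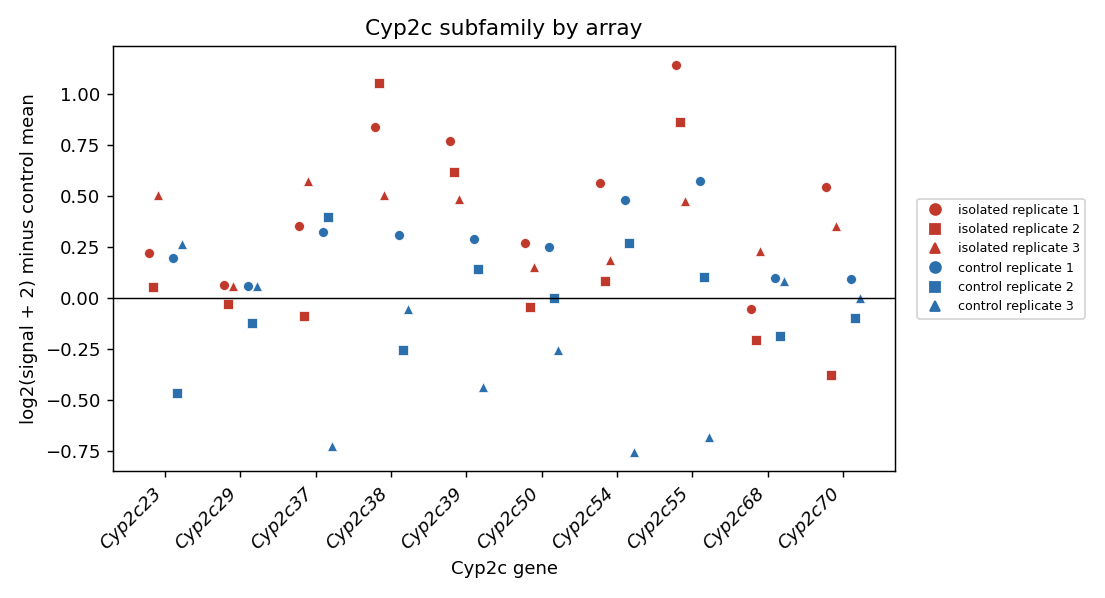
Deviation of log2(signal + 2) from the control mean on the vertical axis for the 10 tested Cyp2c genes, with the 3 isolated arrays in red left of the 3 control arrays in blue and 1 symbol per replicate number. For Cyp2c38 and Cyp2c39 all 3 isolated arrays lie above the 3 control arrays. For Cyp2c37, Cyp2c39, Cyp2c50, Cyp2c54 and Cyp2c55 control replicate 3 is the lowest array.

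Cyp2c55, which is inducible through CAR and PXR, read 38.0, 31.0 and 23.3 in isolated livers, against 25.0, 17.5 and 9.33 in control livers. These are low signals that overlap between groups, and the limma adjusted p was 0.43. Cyp2c54 read 1830, 1308 and 1407 in isolated livers, against 1726, 1491 and 732 in control livers. Control replicate 3 was the lowest array for Cyp2c54, the other 5 overlapped, and the log2 change was 0.28 (limma adjusted p 0.737). Cyp2c70, which hydroxylates bile acids to muricholic acids in mice, read 6670, 3523 and 5846 in isolated livers, against 4871, 4276 and 4571 in control livers. Isolated replicate 2 lay below every control and the other 2 isolated arrays above every control. The log2 change of Cyp2c70 was 0.18 (limma adjusted p 0.8), and without isolated replicate 2 it was 0.45 with an adjusted p of 0.0476. Cyp2c55, Cyp2c54 and Cyp2c70 were picked for description after their values were seen.

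Cyp2c29, the Cyp2c probe set with the highest mean, read 8200, 7687 and 8165 in isolated livers, against 8173, 7203 and 8186 in control livers. The groups overlapped, with a log2 change of 0.03 and a 95% interval of -0.20 to 0.26. The other tested genes of the subfamily, Cyp2c23, Cyp2c37, Cyp2c50 and Cyp2c68, had log2 changes of -0.01 to 0.28 and overlapping groups.

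In the Cyp2d subfamily, which in mice includes steroid hydroxylases of male liver, 8 probe sets of 6 genes were tested. Of these, 7 had log2 changes below 0, both probe sets of Cyp2d13 among them, where 55.4% of all tested probe sets lay above 0. In the subfamily 0 were called, where 1.63% of all tested probe sets were. Related genes read on the same arrays are not separate observations. The median log2 change of the subfamily was -0.10, and it ranged from -0.24 to -0.03 over the alternatives. Whether the Cyp2c and Cyp2d subfamilies differ in their change was not tested. Cyp2d9, a male-biased steroid hydroxylase, read 6644, 6261 and 7283 in isolated livers, against 7645, 6644 and 6945 in control livers. The groups overlapped, and the interval of the log2 change, -0.07, ran from -0.31 to 0.16. Cyp2d10 and Cyp2d26 had log2 changes of -0.06 and -0.10, with intervals of -0.30 to 0.18 and -0.35 to 0.14.

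Cyp2d13, which RefSeq lists as a transcribed pseudogene, was lower on all isolated arrays by both of its probe sets. The first read 578, 498 and 626 in isolated livers against 742, 627 and 958 in control livers, and the second 196, 223 and 244 against 276, 292 and 357. The nearest arrays of the first probe set, isolated replicate 3 and control replicate 2, were almost equal. The log2 changes were -0.43 and -0.47 with limma adjusted p of 0.293 and 0.253, so neither was called. Cyp2d40 read 62.0, 67.5 and 42.2 in isolated livers against 83.1, 67.4 and 103 in control livers, with overlapping groups and a limma adjusted p of 0.351. The 2 probe sets of Cyp2d22 had log2 changes of opposite sign, -0.10 and 0.16, and neither was called. Cyp2d13, Cyp2d22 and Cyp2d40 were chosen for description after their values were seen.

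Cyp1a2, the constitutive caffeine-metabolising member of family 1 in liver, read 3778, 3707 and 3888 in isolated livers, against 4037, 3260 and 3643 in control livers. The isolated arrays fell inside the control range, and the log2 change was 0.06 with a 95% interval of -0.20 to 0.32. Cyp1a1, the classical AHR-induced gene, read 23.8, 25.1 and 34.0 in isolated livers, against 25.0, 23.7 and 26.3 in control livers. That signal is close to the filter floor in both groups, and the log2 change was 0.12 with an interval of -0.55 to 0.79.

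Cyp2a12, a steroid hydroxylase, read 5161, 3831 and 4766 in isolated livers, against 4787, 4256 and 5508 in control livers. The isolated arrays spread on both sides of the control mean, with a log2 change of -0.08 (95% interval -0.37 to 0.20). Cyp2b10, the standard CAR target of mouse liver, was measured by 3 probe sets. The one with the highest mean read 154, 174 and 66.7 in isolated livers, against 143, 102 and 97.3 in control livers. Isolated replicate 3 was the lowest isolated array on all 3 probe sets and control replicate 1 the highest control, and the groups overlapped on each. Log2 changes were 0.07 to 0.14, with limma adjusted p of 0.906 to 0.968, and changed sign for each probe set when single arrays were left out. A further probe set read 107, 108 and 71.3 in isolated livers against 109.9, 59.4 and 93.6 in control livers, and the last 91.8, 102 and 58.4 in isolated livers against 114, 55.2 and 74.7 in control livers.

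Cyp2b9, female-biased in mouse liver, read 38.3, 70.9 and 14.8 in isolated livers, against 39.0, 23.8 and 7.50 in control livers. The log2 change of 0.77 had a wide interval of -0.28 to 1.81, and the groups overlapped. Cyp3a44, also female-biased, read 30.2, 21.4 and 53.8 in isolated livers, against 36.3, 35.2 and 38.3 in control livers, with a log2 change of -0.15. Of the 9 listed female-biased P450 genes 4 had a probe set of their own and 2 were tested, with 0 called. Of 3 listed male-biased genes 2 were tested, Cyp2d9 and Cyp2u1, with 0 called. Over all tested probe sets 1.63% were called, so lists this short leave little room for a call.

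Cyp2e1, which oxidises ethanol, acetone and small solvents, read 12077, 10760 and 10475 in isolated livers, against 11371, 12049 and 11708 in control livers. The highest and the lowest reading were both from isolated livers, and the log2 change was -0.08 with a 95% interval of -0.30 to 0.14. Cyp2f2, which activates naphthalene, read 7260, 6509 and 7575 in isolated livers, against 7041, 6353 and 8009 in control livers. The means, 7115 ± 548 and 7134 ± 832 (SD, n = 3 per group), were almost the same, with an interval of -0.25 to 0.25 for the log2 change. Cyp3a11, the main PXR-inducible Cyp3a enzyme of mouse liver, read 10887, 10447 and 10838 in isolated livers, against 10646, 10262 and 11110 in control livers. All isolated arrays lay within the control range, and the log2 change was 0.01 with an interval of -0.21 to 0.22. The highest signal of any probe set was 14741 to 16673 on the isolated arrays and 14623 to 16376 on the control arrays, and whether signals this high still scale with RNA was not tested.

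**Figure D3:**
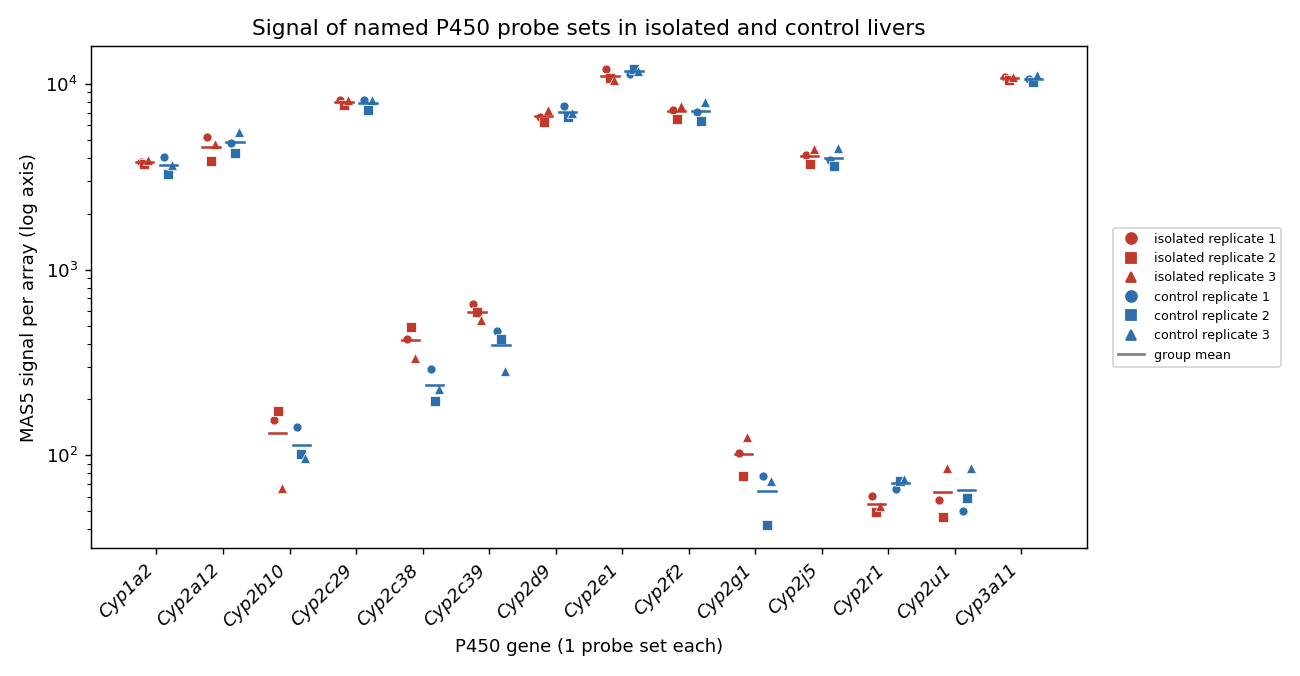
MAS5 signal per array on a logarithmic vertical axis for the P450 probe set with the highest mean in each tested subfamily, plus Cyp2c38 and Cyp2c39; isolated arrays are red and left of control arrays in blue, and lines are group means over 3 arrays. Isolated and control arrays do not overlap for Cyp2c38, Cyp2c39 and Cyp2r1, and they do for the other genes shown.

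Of the 4 tested Cyp3a genes, Cyp3a13 had the change of largest size, at 664, 511 and 571 in isolated livers against 554, 770 and 780 in control livers. Its groups overlapped, at -0.26 on the log2 scale (limma adjusted p 0.649). Cyp3a25 had a log2 change of -0.05 with an interval of -0.29 to 0.18. In the Cyp2j subfamily, 5 tested probe sets had log2 changes of -0.25 to 0.09, and 0 were called. Cyp2j5, an arachidonic acid epoxygenase of kidney and liver, read 4170, 3706 and 4439 in isolated livers, against 3894, 3607 and 4502 in control livers, and its second probe set had a log2 change of 0.01. The 2 probe sets of Cyp2j5 and the 2 of Cyp2j6 each had log2 changes within 0.1 of 0.

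Cyp2r1, which hydroxylates vitamin D, read 60.3, 49.5 and 53.7 in isolated livers, against 65.6, 73.0 and 74.2 in control livers. The groups did not overlap, but the log2 change of -0.37 had an interval of -0.82 to 0.07 and a limma adjusted p of 0.569. Cyp2g1, known from olfactory mucosa, read 103, 77.4 and 125 in isolated livers, against 77.7, 42.0 and 72.8 in control livers. Isolated replicate 2 lay just below control replicate 1, and the log2 change was 0.67 with a limma adjusted p of 0.244, or 0.40 without control replicate 2. Cyp2u1, a fatty acid hydroxylase, had 2 probe sets with log2 changes of -0.04 and 0.18. The first read 57.7, 46.8 and 85.2 in isolated livers against 50.4, 58.7 and 85.3 in control livers, with groups that overlapped throughout.

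Of the 16 tested P450 probe sets with a mean signal above 1000, covering 15 genes, 14 had a 95% interval that lay within 0.5 log2 units of 0. Their log2 changes ran from -0.10 to 0.28 and the smallest limma adjusted p was 0.737. Cyp2c54 and Cyp2c70 were the 2 with wider intervals, -0.19 to 0.75 and -0.18 to 0.53. Among the dimmer tested probe sets the median SE was 0.23, against 0.12 above a signal of 1000, and 4 of these 24 dimmer probe sets had an interval within 0.5 of 0.

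Among genes that regulate the P450 families, Ahr and Bcl6 rose and Ppara, Cebpb and Nr0b2 fell in isolated livers. Of 19 tested receptors and liver factors, from a list of 21, 2 rose, 3 fell and 14 were not called, with a median log2 change of 0.07, where 0.773% of all tested probe sets were called higher and 0.857% lower. That list was drawn up with earlier results of these data known. Ahr, the receptor that induces Cyp1a1 and Cyp1a2, read 315, 328 and 410 in isolated livers, against 130, 119 and 111 in control livers. Every isolated array was more than 2 times as high as every control array, a 2.88-fold rise at 1.53 ± 0.18 (SE) on the log2 scale (limma adjusted p 3.65e-05). Ahr passed under each alternative, with adjusted p up to 0.0369, and its other, untested probe set read 20.6, 7.28 and 14.8 in isolated livers against 16.4, 2.45 and 3.90 in control livers. Besides Cyp1a1 and Cyp1a2, the AHR targets Nqo1, Tiparp and Ugdh were tested and 0 of 3 were called, where 1.63% of all tested probe sets were. Tiparp, an AHR-induced repressor of AHR, read 97.0, 100.3 and 89.8 in isolated livers, against 81.9, 84.1 and 87.2 in control livers (limma adjusted p 0.829).

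**Figure D4:**
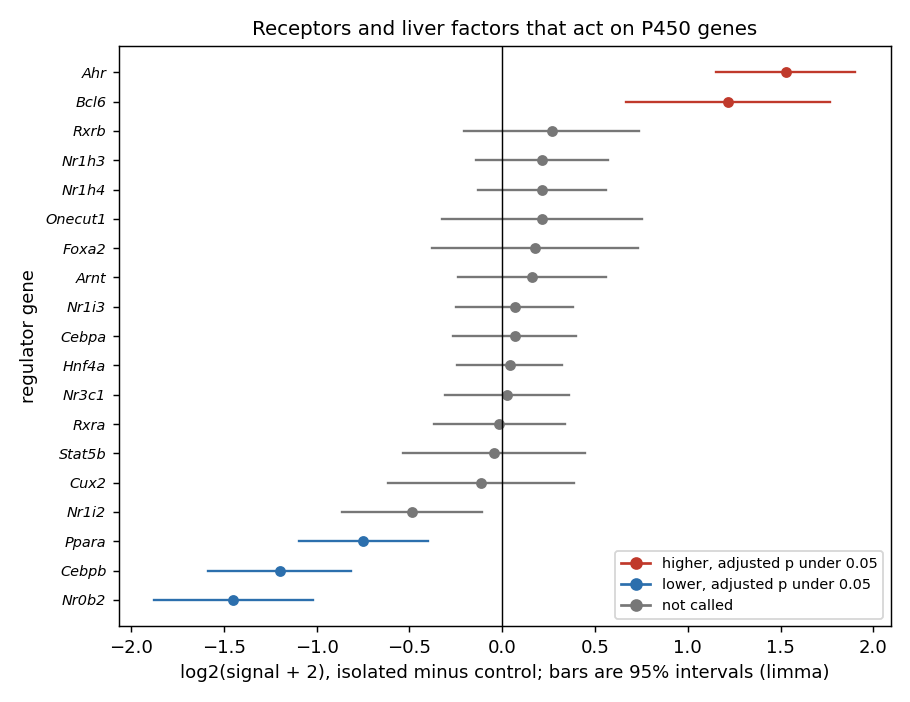
Difference in log2(signal + 2), isolated minus control, on the horizontal axis for the 19 tested receptors and liver factors that act on P450 genes, with 95% limma intervals from 3 arrays per group. Ahr at 1.53 and Bcl6 at 1.22 rose, and Ppara, Cebpb and Nr0b2 fell.

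Bcl6, a repressor that opposes STAT5 at sex-biased liver genes, read 162, 333 and 462 in isolated livers, against 115, 135 and 125 in control livers. Isolated replicate 1 was closest to the controls, and the log2 change was 1.22 with a limma adjusted p of 0.0172. That call was lost without control replicate 3 (0.0836), without isolated replicate 3 (0.0936) with a robust trend (0.208), with no filter (0.0948), with quantile normalization (0.0761), without the intensity trend (0.246) and with array weights (0.085), and the second probe set of Bcl6 had an adjusted p of 0.0666. Ppara fell to 839, 749 and 1167 in isolated livers, against 1411, 1396 and 1768 in control livers. The groups did not overlap, and the log2 change was -0.75 with a limma adjusted p of 0.022, lost without control replicate 3 (0.124), isolated replicate 1 (0.0558) or isolated replicate 2 (0.0642), with no filter (0.0931) and without the intensity trend (0.264). A second probe set of Ppara was called with a log2 change of -0.95 (limma adjusted p 0.00168) and the last was not (-0.47, adjusted p 0.247). Cebpb, a stress-responsive C/EBP factor, read 421, 384 and 679 in isolated livers, against 1067, 1037 and 1211 in control livers. Every isolated array was below every control array, and Cebpb fell by 1.20 on the log2 scale (limma adjusted p 0.00084). Nr0b2, a corepressor of nuclear receptors, read 286, 445 and 605 in isolated livers, against 1189.8, 1282 and 1036 in control livers. It too was apart between groups, and fell by 1.45 on the log2 scale (limma adjusted p 0.000292). Neither Cebpb nor Nr0b2 passed without the intensity trend (adjusted p 0.124 and 0.106).

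The receptors that act on Cyp2b, Cyp2c and Cyp3a genes were not called. Nr1i2, which encodes PXR, read 129, 157 and 132 in isolated livers, against 183, 202 and 200.2 in control livers. Its groups did not overlap, and the log2 change was -0.49 with a limma adjusted p of 0.25. Nr1i3, which encodes CAR, read 800, 636 and 751 in isolated livers, against 686, 671 and 721 in control livers, with a log2 change of 0.07. Of 10 listed P450 genes inducible through CAR or PXR, 10 were tested and 1 was called higher, Cyp2c38, where 0.773% of all tested probe sets were. That call is the one already given for the P450 families. The list was drawn up with earlier results of these data known, so its share adds no separate support. Of 14 CAR or PXR targets outside the P450 families 0 were called, where 1.63% of all tested probe sets were. Aldh1a1 and Gstm1, the 2 with the highest means, had log2 changes of -0.01 each.

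No tested gene for electron or heme supply was called. P450 reductase, the main electron donor, was not analysed here. Of 5 tested electron donor genes 0 were called, and Cyb5a, which encodes cytochrome b5, had a log2 change of -0.03. Of 11 tested heme genes 0 were called. At the 1.63% called over all tested probe sets, few or no calls would fall in lists this short. Alas1, the first enzyme of heme synthesis, read 7250, 4044 and 6307 in isolated livers, against 6304, 5813 and 6735 in control livers. Isolated replicate 2 was the lowest array, as it was for Cyp2c70, and the log2 change of Alas1 was -0.14 (limma adjusted p 0.842).

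Several P450 genes are zoned within the liver lobule, with Cyp1a2 and Cyp2e1 around the central vein and Cyp2f2 toward the portal side, and none of these 3 was called. Of 8 tested pericentral genes outside these families, 1 was called higher, where 0.773% of all tested probe sets were. It was the bile acid synthesis gene Cyp7a1 (5.51-fold, limma adjusted p 3.23e-05, but 0.0797 without the intensity trend and 0.2 with a robust trend). All 8 had log2 changes above 0, where 55.4% of all tested probe sets did. Their median was 0.26, against 0.04 over all tested probe sets. Glul, a marker of the hepatocytes next to the central vein, had a log2 change of 0.32 (limma adjusted p 0.439). Of 9 tested periportal genes 0 were called, where 1.63% of all tested probe sets were. Their median log2 change was -0.01, but they spread from -0.41 to 0.60, with 4 of the 9 above 0. Whether pericentral and periportal genes differ in their change was not tested, and both lists were drawn up with earlier results of these data known.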

How the data were processed

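The deposited intensity values are MAS5 signals per probe set, per the submitters' processing notes; its version, target value and detection calls were not at hand. Following the labels' protocols, cRNA was made from 2 µg of total liver RNA. From 45101 probe sets the 64 array controls were left out. A pseudocount of 2 was added before log2, which understates changes of dim probe sets. Probe sets were ranked by their 6-array mean of log2 values, and the higher 50%, 22519, entered the fit in limma 3.58.1 (R 4.3.3) with 2 groups and eBayes with an intensity trend. The two-sided p-values were adjusted by Benjamini-Hochberg across those 22519. In the variance model the prior from other probe sets had 16.1 degrees of freedom, against 4 residual ones for each probe set. Most of the weight in each variance was thus from other probe sets. With 3 arrays per group the smallest p of an exact permutation test is 0.1. The procedure was tested on simulated data. Gene names came from the platform annotation, where 34945 probe sets had 1 symbol, and promoters from RefSeq tables matched 35 of 43 genes by symbol; figures were drawn with matplotlib 3.10.9.

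Values were given for called P450 probe sets, for the one with the highest mean in each subfamily, for those with groups apart by a log2 change of at least 0.5, for further probe sets of the same genes, and for called list genes with up to 2 others of the highest mean in each list. For some of the further probe sets and list genes, such as Cyp7a1, only a change or an adjusted p was printed. A gene outside the families was represented by its tested probe set with the highest mean. Values given for other genes (Cyp1a1, Cyp2b9, Cyp2b13, Cyp2c54, Cyp2c55, Cyp2c70, Cyp2d10, Cyp2d13, Cyp2d22, Cyp2d26, Cyp2d40, Cyp3a13, Cyp3a16, Cyp3a25, Cyp3a44, Adipoq, Retn, Cidea, Lep, Glul, Nr1i2 and Nr1i3) were chosen after their values were seen. The members and lists were chosen with earlier results of these data known. Alternatives covered the pseudocount, filter, normalization, variance model, array weights, replicate block, probe set type and each array left out. Some listed genes were not analysed here.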

Additional observations from a re-analysis of the deposited data

How the results depend on the processing

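The count of P450 probe sets called lower was 0 under every alternative. The count called higher, 1 in the fit described, was 0 with no filter, with median centring, with quantile normalization and without the intensity trend (adjusted p of Cyp2c38 0.0804, 0.0616, 0.125 and 0.244), and it ranged from 0 to 1 with each array left out. The 1 call without isolated replicate 2 was Cyp2c70, in place of Cyp2c38. With the replicate number as a block the count was 2, Cyp2c38 and Cyp2c39, with adjusted p of 0.0292 each. Arrays with the same number correlated at 0.008, 0.044 and 0.005 in their deviations from the group means, and those with different numbers at -0.042 to 0.037. With 3 arrays per group such values cannot show whether the numbers pair the samples, and the labels do not say. Over all tested probe sets, calls higher and lower numbered 174 and 193, against 15 and 16 without the trend, 81 and 101 with no filter, 265 and 248 with the replicate block, 116 and 147 without control replicate 2, 147 and 82 without control replicate 3, and 97 and 246 without isolated replicate 3. Median centring gave 258 and 183, array weights 258 and 230, a stricter filter that kept 15013 probe sets 261 and 248, and quantile normalization 148 and 242.

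Some uncalled log2 changes near 0 changed sign. Cyp2f2 was 0.053 with median centring, 0.028 with quantile normalization and 0.047 with array weights, Cyp2a12 was 0.020 with array weights, and Cyp2u1 was 0.011 with median centring. With each array left out the ranges were -0.017 to 0.14 for Cyp1a2, -0.17 to 0.040 for Cyp2a12, -0.029 to 0.063 for Cyp2c29, -0.081 to 0.086 for Cyp2f2, -0.27 to 0.17 for Cyp2u1 and -0.021 to 0.037 for Cyp3a11. They were -0.033 to 0.13 and -0.073 to 0.090 for the 2 probe sets of Cyp2j5, and -0.14 to 0.54, -0.11 to 0.34 and -0.17 to 0.34 for the 3 of Cyp2b10. None of these was called in any of these fits, and the cause was not tested. For named P450 probe sets, 251 values under alternatives kept their direction and side of the threshold, 27 changed sign, 8 fell short of the threshold and 1 passed it. All 8 that fell short were of Cyp2c38, the only called P450 probe set, and the 1 that passed was of Cyp2c39. Most of the 251 were uncalled probe sets that stayed uncalled. The number of arrays and the low signal of 12 untested probe sets limit what can be resolved.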

Other observations

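The annotation joined 2 further probe sets to several P450 symbols, so they were not counted with the others. The probe set shared by Cyp2a5, a coumarin hydroxylase, and its near-identical relative Cyp2a4 read 6613, 7429 and 5964 in isolated livers, against 6576, 4784 and 5497 in control livers. The groups overlapped, at 0.25 on the log2 scale (limma adjusted p 0.492). The probe set shared by Cyp3a41a and Cyp3a41b, which are female-biased in mouse liver, read 111, 84.7 and 147 in isolated livers, against 144, 117 and 159 in control livers. That is -0.31 on the log2 scale (limma adjusted p 0.67).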
